A study of Mus musculus with 6 samples.

Results

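The unfolded protein response and the integrated stress response were followed through 34 genes, chosen by name from textbook knowledge of both pathways and matched to Ensembl identifiers. All 34 were found among the 32061 genes listed, and 33 had enough counts to be tested. Phgdh was the exception, with 0 to 10 counts in any library. RNA came from mouse hepatocytes isolated by collagenase perfusion at 10 to 12 weeks of age. The 3 libraries called senescent came from AhCre+Mdm2fl/fl mice, in which a Cre recombinase can delete Mdm2, the gene of the ubiquitin ligase that keeps p53 low. The 3 libraries called healthy came from AhCre- mice, with Mdm2 alleles not given in the sources used here. Mice of both groups received β-naphthoflavone in corn oil by intraperitoneal injection at 20 mg/kg for 48 h, and the ligand drives AhCre through a promoter that is not particular to hepatocytes. Cre, loss of Mdm2 and the p53 response that follows cannot be told apart in this design, and the labels do not tie libraries to single animals. The p-values therefore reflect only how far these libraries vary.

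When unfolded proteins build up in the endoplasmic reticulum (ER), 3 membrane sensors respond. IRE1 (Ern1) splices the Xbp1 transcript, ATF6 is cut to release a transcription factor, and PERK (Eif2ak3) phosphorylates the translation factor eIF2α. Other kinases, among them the amino acid sensor GCN2 (Eif2ak4), phosphorylate the same site, which slows most translation while favouring that of ATF4. Hepatocytes carry a large ER because they secrete most plasma proteins. Counts per gene show neither Xbp1 splicing, nor cleavage of ATF6, nor phosphorylation of eIF2α, so what follows is transcript abundance only.

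Total counts were 28799392 to 33267299 per library. Mdm2 had 463 to 501 CPM in the senescent and 19.03 to 22.7 CPM in the healthy libraries, where CPM stands for counts per 1000000 after scaling library sizes by the trimmed mean of M values (TMM). The count spans the whole gene and so does not check the deletion. The 8 hepatocyte markers summed to 115590 to 131490 CPM in healthy and 65425 to 78217 CPM in senescent libraries, and 6 of them fell. Markers of other cells were present at lower levels, and no marker searched was at 0 in every library. The 12 Kupffer cell and macrophage markers summed to 98.2 to 267 CPM in healthy and 242 to 488 CPM in senescent libraries, with healthy replicate 3 the lowest. Of them, edgeR called 2 higher, limma-voom 4 and DESeq2 6, and edgeR 10 with total library size. Markers of cholangiocytes summed to 4.70 to 8.05 CPM in healthy and 11.4 to 16.3 CPM in senescent libraries, and 2 of 4 tested rose. Those of neutrophils summed to only 0.156 to 0.842 and 2.16 to 2.32 CPM. Both of the 2 tested rose, but they met the count filter mainly through the senescent group. Over all tested genes 20.4% rose and 20.7% fell. The 10 stellate cell markers summed to 11.7 to 18.9 and 28.01 to 43.7 CPM, and 6 rose. The 7 sinusoidal endothelial markers did not share this direction. They summed to 92.3 to 115 CPM in healthy and 89.9 to 113 CPM in senescent libraries, and 0 rose and 1 fell by edgeR (0 and 0 by limma-voom). The 6 T and NK cell markers summed to at most 1.01 CPM in any library, and 0 of them were tested. The 7 B and plasma cell markers, which include the ER protein gene Mzb1, summed to 3.04 to 13.7 and 2.80 to 6.86 CPM, and 0 of the 3 tested passed edgeR's test (1 at an unadjusted p under 0.05, 1 by DESeq2 and 0 by limma-voom). The part of these cells in the results below was not tested, and in bulk RNA fewer cells of a type cannot be told apart from less RNA per cell.

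The comparison asks which stress response transcripts differ between senescent and healthy hepatocytes. Of the 33 tested genes, 8 fell, 0 rose and 25 did not pass (quasi-likelihood test of edgeR, p adjusted by Benjamini and Hochberg over 12949 genes, threshold 0.05). Among all tested genes 41.1% passed, 20.7% lower and 20.4% higher, so the falls came at about the background share and the rises below it. At an unadjusted p under 0.05, 9 of the 33 fell and 2 rose. DESeq2 called 8 lower and 1 higher, and limma-voom 7 lower and 0 higher. The genes that fell were Chac1, Creb3l3, Trib3, Atf5, Shmt2, Vldlr, Sel1l and Pdia4. The median log2 fold change, senescent minus healthy, was -0.13 over the 33 genes and 0.01 over all tested genes. Leaving out 1 library moved that of the 33 to between -0.30 (without healthy replicate 1) and 0.02 (without healthy replicate 3). All 3 senescent libraries were below all 3 healthy ones for 8 genes and above them for 1, Mthfd2, against 27.2% and 26.8% of all tested genes. The count of falls was 5 without senescent replicate 1, and that of rises 4 without healthy replicate 3. When scaled by total library size only, the median of all genes rose to 0.33 and 5 of the 33 genes were called higher and 5 lower, where 37.5% and 9.92% of all genes were; changes are given relative to TMM.

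**Figure D1:**
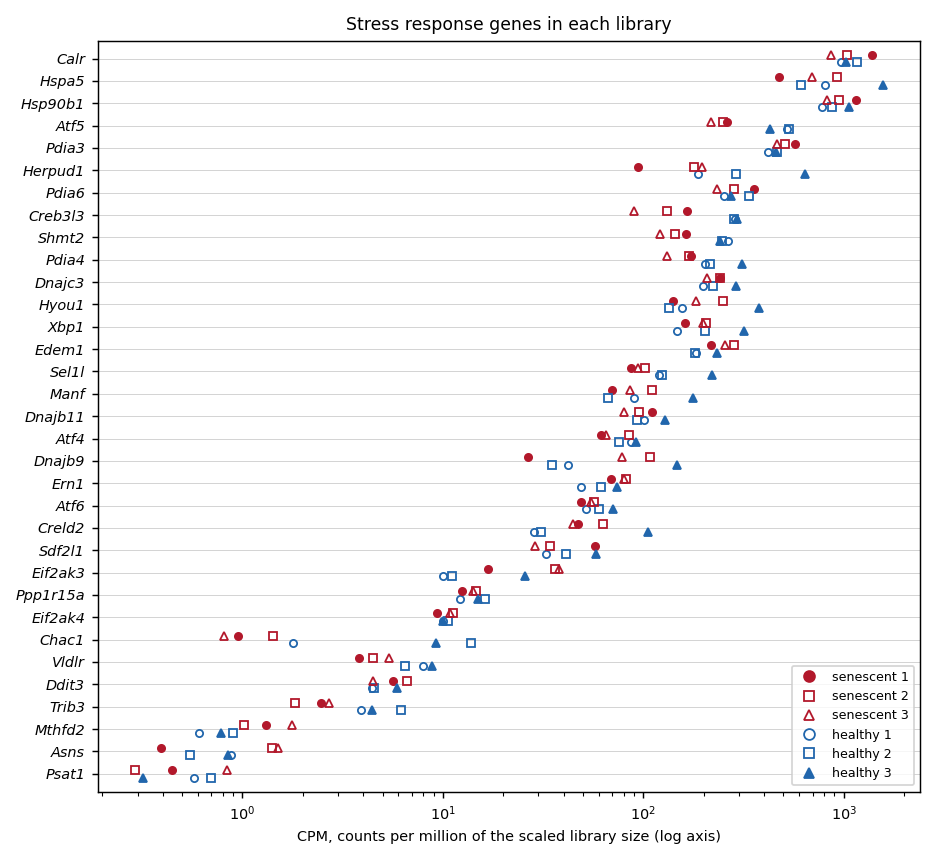
CPM of the 33 tested genes in each library (log axis), ordered by their healthy mean, with senescent libraries in red and healthy ones in blue. Filled symbols mark senescent replicate 1 and healthy replicate 3. Atf5, Creb3l3 and Shmt2 are lower in every senescent library than in any healthy one, whereas for Hspa5, Dnajb9 and Creld2 the healthy libraries themselves spread from 614 to 1572, 35.1 to 147 and 28.6 to 106 CPM.

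Among the sensors and kinases, none of the 4 genes passed the test (edgeR; 1 higher at an unadjusted p under 0.05, 1 by DESeq2 and 0 by limma-voom). Of all tested genes 41.1% passed edgeR's test. Eif2ak3, which encodes PERK, had 16.9, 36.5 and 38.1 CPM in the senescent libraries (replicates 1, 2 and 3 in this order throughout) and 10.04, 11.2 and 25.6 CPM in healthy ones. Senescent replicate 1 lay below healthy replicate 3, so the groups overlapped. The log2 fold change of Eif2ak3 was 0.96 ± 0.41 (± SE, edgeR adjusted p = 0.091). DESeq2 called it higher with all libraries (0.957, DESeq2 adjusted p = 0.028). By edgeR it passed without healthy replicate 3 (1.52, adjusted p = 0.01), without senescent replicate 1 (1.27, adjusted p = 0.033) or with total library size (1.27, adjusted p = 0.032). Ern1, the gene of IRE1, had 68.7, 82.1 and 80.2 CPM in senescent and 49.1, 61.5 and 73.6 CPM in healthy libraries. Here too 1 senescent library, replicate 1, was under the highest healthy one. The log2 fold change of Ern1 was 0.33 ± 0.16 (edgeR adjusted p = 0.13), and 0.47 without healthy replicate 3 (adjusted p = 0.034). With total library size it was 0.635 (edgeR adjusted p = 0.013). Atf6 had 48.7, 56.5 and 55.1 CPM in senescent against 51.7, 60.4 and 70.2 CPM in healthy libraries. Eif2ak4 had 9.32, 11.25 and 10.8 against 10.04, 10.6 and 10.04 CPM. The values of both genes overlapped between groups, with log2 fold changes of -0.19 ± 0.14 for Atf6 and 0.03 ± 0.13 for Eif2ak4 (edgeR adjusted p = 0.31 and 0.85). The direction of Atf6 flipped with total library size (0.12).

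The central transcription factor of the integrated stress response did not pass, while 2 other factors fell about 2-fold. Atf4 had 61.3, 84.8 and 65.2 CPM in senescent and 86.5, 76.1 and 91.5 CPM in healthy libraries, with senescent replicate 2 inside the healthy range. Its log2 fold change was -0.27 ± 0.15 (edgeR adjusted p = 0.18), and 0.04 with total library size. Synthesis of the ATF4 protein is controlled mainly at translation, which these counts do not read. Atf5, a bZIP factor translated under the same control and abundant in liver, had 263, 249.8 and 217 CPM in senescent against 521, 535 and 427 CPM in healthy libraries. All 3 senescent values were below the lowest healthy one, and the log2 fold change was -1.02 ± 0.14 (edgeR adjusted p = 9.2e-04). Creb3l3 encodes CREBH, a factor held in the ER membrane of hepatocytes and cut in the manner of ATF6. It had 166, 132 and 89.6 CPM in senescent and 288, 283 and 294 CPM in healthy libraries. The healthy values were within 1.04 times of each other and all senescent ones were lower, by -1.16 ± 0.21 on the log2 scale (edgeR adjusted p = 0.0030). Exons of Atf5 share 82 bases with Nup62 on the other strand, with the strand setting of the counting not given in the sources used here.

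Ddit3, the gene of the death-linked factor CHOP, had 5.66, 6.59 and 4.49 CPM in senescent and 4.45, 4.51 and 5.90 CPM in healthy libraries. The groups overlapped, and the log2 fold change was 0.17 ± 0.20 (edgeR adjusted p = 0.53). Its exons share 68 bases with Mars on the opposite strand. Xbp1 had 161, 206 and 198 CPM in senescent against 147, 203 and 319 CPM in healthy libraries. Healthy replicates 1 and 3 bracketed every senescent value, and the log2 fold change of -0.24 ± 0.26 (edgeR adjusted p = 0.48) became 0.10 without healthy replicate 3 and 0.06 with total library size.

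Of 4 genes grouped under feedback and output of the stress response, 2 fell (Chac1 and Trib3) and 2 did not pass, where 20.7% of all tested genes fell. Chac1 encodes an enzyme that degrades glutathione and is a textbook target of ATF4 and CHOP. It had 0.949, 1.43 and 0.811 CPM in senescent libraries and 1.79, 13.9 and 9.19 CPM in healthy ones. All senescent values were below the lowest healthy value, but healthy replicate 2 was 7.78 times healthy replicate 1, the widest spread within the healthy group among the 33 genes. The log2 fold change was -2.96 ± 0.65 (edgeR adjusted p = 0.0080), and limma-voom did not call it (-2.505, adjusted p = 0.061). Trib3, whose pseudokinase restrains ATF4 and CHOP, had 2.46, 1.84 and 2.69 CPM against 3.91, 6.19 and 4.45 CPM. The groups did not overlap, with a log2 fold change of -1.06 ± 0.25 (edgeR adjusted p = 0.010). Ppp1r15a (GADD34), which recruits the phosphatase that restores eIF2α, had 12.4 to 14.7 CPM in senescent and 12.2 to 16.1 CPM in healthy libraries. Dnajc3 (p58IPK), an ER co-chaperone first known as an inhibitor of PERK, had 207 to 242 and 199 to 291 CPM. Neither passed (edgeR adjusted p = 0.71 and 0.86), and both log2 fold changes, -0.07 and -0.04, turned positive with total library size (0.24 and 0.27); that of Dnajc3 also did so without healthy replicate 3 (0.13) or senescent replicate 3 (0.07), and that of Ppp1r15a without senescent replicate 1 (0.02) or healthy replicate 2 (0.01).

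The amino acid and one-carbon enzymes that ATF4 controls were mostly near the limit of detection in these cells. Asns, the asparagine synthetase gene, had 0.391 to 1.51 CPM over all 6 libraries, and Psat1, of serine synthesis, 0.291 to 0.839 CPM. Phgdh, the entry enzyme of serine synthesis, had at most 0.311 CPM, and its 0 counts in healthy replicate 3 allow up to 0.106 CPM (3 counts, counting error only). Mthfd2, a mitochondrial folate enzyme gene, had 1.31, 1.02 and 1.77 CPM in senescent and 0.606, 0.895 and 0.778 CPM in healthy libraries. The senescent values were all above the healthy ones, but the log2 fold change of 0.85 ± 0.33 did not pass (edgeR adjusted p = 0.068). With total library size Mthfd2 was called higher (1.164, edgeR adjusted p = 0.023). Shmt2, the mitochondrial serine hydroxymethyltransferase gene, was of another order of abundance and fell. It had 164, 145 and 122 CPM in senescent against 264, 247 and 241 CPM in healthy libraries, without overlap, and a log2 fold change of -0.80 ± 0.14 (edgeR adjusted p = 0.0024). Vldlr, a lipoprotein receptor gene induced by ATF4 in the liver, had 3.79, 4.46 and 5.38 CPM against 7.95, 6.46 and 8.84 CPM. Its log2 fold change was -0.77 ± 0.19 (edgeR adjusted p = 0.013), a call lost with total library size (-0.46, adjusted p = 0.093) and without senescent replicate 1 (-0.63, adjusted p = 0.052).

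ER chaperone genes did not separate the groups. Of 9, 0 passed in either direction (edgeR; 0 at an unadjusted p under 0.05, 0 by DESeq2 and 0 by limma-voom), with log2 fold changes from -0.51 to 0.10 and a median of -0.13. Of all tested genes 20.4% rose and 20.7% fell. Hspa5 encodes BiP, the ER chaperone that also holds the sensors inactive. It had 477, 924 and 698 CPM in senescent and 804, 614 and 1572 CPM in healthy libraries. Healthy replicate 3 was 2.56 times healthy replicate 2, and the remaining healthy libraries lay inside the senescent range. The log2 fold change of -0.51 ± 0.36 did not pass (edgeR adjusted p = 0.29), and it was -0.02 without healthy replicate 3. Dnajb9 (ERdj4), a target of spliced XBP1, had 26.6, 107.8 and 78.5 CPM in senescent and 42.1, 35.1 and 147 CPM in healthy libraries. Within each group the highest library was about 4 times the lowest (4.05 and 4.20), and the log2 fold change was -0.08 ± 0.61 (edgeR adjusted p = 0.93). It turned positive with total library size (0.21), by limma-voom (0.02) and without senescent replicate 1 (0.33) or healthy replicate 3 (0.88). Creld2, an ER stress induced folding factor, had 47.2, 63.1 and 44.8 CPM against 28.6, 31.01 and 106 CPM. Its log2 fold change was -0.09 ± 0.46, and without healthy replicate 3 it was called higher (0.79, edgeR adjusted p = 0.0090); it was also positive with total library size (0.20), by limma-voom (0.17) and without senescent replicate 3 (0.03).

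Hyou1, an ER nucleotide exchange factor gene, and Manf, which encodes a secreted ER stress protein, ran in the same order of libraries as Hspa5 within each group. Hyou1 had 141, 249.7 and 183 CPM in senescent and 157, 135 and 380.0 CPM in healthy libraries. Manf had 69.9, 111 and 86.3 CPM against 90.01, 66.4 and 177 CPM. For all 3 genes healthy replicate 3 was the highest of the 6 libraries and senescent replicate 1 the lowest of its group. The chaperone genes Hsp90b1 and Calr did not share this order. Hsp90b1 (GRP94) had 1152, 948 and 825 CPM in senescent and 784, 873 and 1063 CPM in healthy libraries, and Calr, of the lectin chaperone calreticulin, 1380, 1038 and 863 CPM against 973, 1168 and 1022 CPM. Senescent replicate 1 was the highest of the 6 libraries for both. Sdf2l1 and Dnajb11, partners of BiP, had 28.8 to 57.4 and 79.8 to 111 CPM in senescent and 32.8 to 58.2 and 93.1 to 129 CPM in healthy libraries.

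Promoters of several of these genes hold the ER stress response element, the site of ATF6 with NF-Y. Promoter windows of 300 bases, 250 before the start site and 50 from it on, were found for 31 of the 34 genes in RefSeq's table for GRCm38.p6. The element (ERSE), CCAAT and CCACG with 9 bases of any kind between them, was searched on both strands. It was found for 6 of those 31 genes and in 0.119% of all 32851 windows. The 6 were Hspa5, Hsp90b1, Calr, Creld2, Pdia6 and Dnajc3. None of them passed edgeR's test (also 0 of these 6 by DESeq2 and by limma-voom), where 41.1% of all tested genes passed edgeR's. The shorter ERSE-II, ATTGG and CCACG with 1 base between them, was found for Herpud1 and Dnajb11 (0.0365% of windows), and the element TGACGTGG for 0 of the 31 (0.676% of windows). TGATGNAA, the composite element of ATF4 and CHOP or C/EBP, was found for Chac1, Trib3, Vldlr, Asns and Herpud1 (3.97% of windows). The match of Trib3 lies after the start site, at bases 15 to 22, as does the ERSE-II match of Dnajb11, at bases 8 to 18. Chac1, Trib3 and Vldlr were among the 8 genes that fell, where 20.7% of all tested genes fell, and Asns and Herpud1 did not pass. A link between element and change was not tested. ERSE and ERSE-II did not overlap TGATGNAA in any of these windows. Stretches are printed for Hspa5 and Creld2, the ERSE genes with the widest spread among healthy libraries, for Herpud1, which holds both kinds of element, and for Chac1, Vldlr and Asns as holders of the ATF4 element. They run 5′ to 3′ on the gene's strand, with matches to either strand of an element in capitals.
Hspa5 (chr2:34772015-34772053, plus strand, ERSE): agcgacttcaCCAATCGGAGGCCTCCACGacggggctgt
Creld2 (chr15:88819510-88819548, plus strand, ERSE reversed): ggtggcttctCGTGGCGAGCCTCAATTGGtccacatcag
Herpud1 (chr8:94386307-94386397, plus strand, TGATGNAA reversed, then ERSE-II): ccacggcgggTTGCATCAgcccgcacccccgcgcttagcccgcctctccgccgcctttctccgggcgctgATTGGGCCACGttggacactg
Chac1 (chr2:119351039-119351066, plus strand, TGATGNAA reversed): ttccctgccgTTGCATCActcctgccag
Vldlr (chr19:27216810-27216837, plus strand, TGATGNAA reversed): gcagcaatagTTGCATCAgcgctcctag
Asns (chr6:7693215-7693242, minus strand, TGATGNAA): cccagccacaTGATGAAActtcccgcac
In all 6 stretches the element lies within 250 bases before the start site. A match is a description of these letters and not evidence of binding.

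The protein disulfide isomerases and the ER-associated degradation genes held the remaining falls. Pdia4 (ERp72) had 174, 169 and 131 CPM in senescent and 204, 216 and 310.5 CPM in healthy libraries. The groups did not overlap, and the log2 fold change was -0.62 ± 0.19 (edgeR adjusted p = 0.030). The call was lost without healthy replicate 3 (-0.41, adjusted p = 0.061), without senescent replicate 1, 2 or 3 (adjusted p = 0.055, 0.077 and 0.15), and with total library size (-0.32, 0.19). Pdia3 (ERp57) and Pdia6 (P5) had log2 fold changes of 0.20 ± 0.13 and 0.01 ± 0.18 and did not pass (edgeR adjusted p = 0.25 and 0.97). With total library size Pdia3 was called higher (0.513, edgeR adjusted p = 0.012). Sel1l, the scaffold of the HRD1 ubiquitin ligase that removes misfolded proteins from the ER, had 86.9, 101.7 and 94.5 CPM in senescent and 120.0, 123 and 220.2 CPM in healthy libraries. It fell by 0.71 ± 0.23 on the log2 scale (edgeR adjusted p = 0.037). That call was lost without any single senescent library (adjusted p = 0.11, 0.082 and 0.13 without replicates 1, 2 and 3) and under total library size scaling (-0.41, adjusted p = 0.17), and the change was -0.37 without healthy replicate 3 (adjusted p = 0.036).

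Herpud1, which encodes an ER membrane protein of the same ligase, had 93.9, 178 and 196 CPM in senescent and 187, 291 and 640.2 CPM in healthy libraries. Only senescent replicate 3 reached above the lowest healthy library. Its log2 fold change of -1.26 ± 0.44 was just short of the threshold (edgeR adjusted p = 0.051), passed without healthy replicate 1 (-1.58, adjusted p = 0.016), with DESeq2-type size factors (0.047) and with no filter on low counts (0.026), and was -0.62 without healthy replicate 3. Edem1, a lectin that passes misfolded glycoproteins to the same pathway, moved the other way: 219, 282 and 257 CPM in senescent against 184, 180.2 and 234 CPM in healthy libraries. It did not pass with all libraries (0.34 ± 0.15, edgeR adjusted p = 0.10) and did without healthy replicate 3 (0.47, adjusted p = 0.035) or with total library size (0.65, adjusted p = 0.0084).

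**Figure D2:**
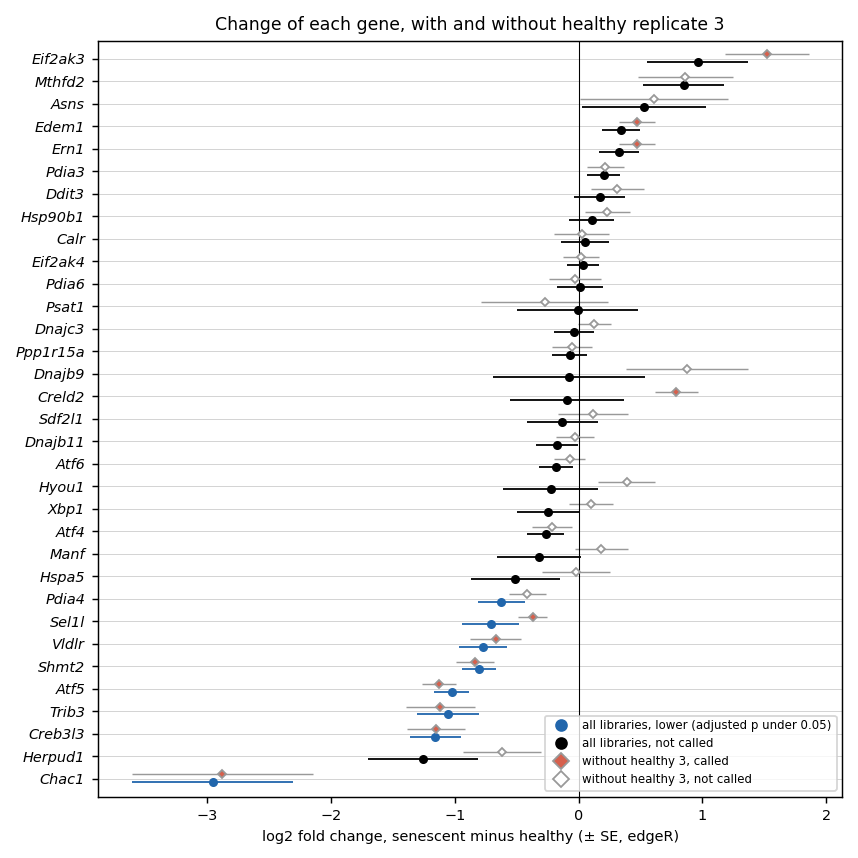
Log2 fold change of the 33 tested genes, senescent minus healthy, with its SE from edgeR. Circles use all 6 libraries (blue: called lower) and diamonds leave out healthy replicate 3 (red: called). Without that library Eif2ak3, Ern1, Edem1 and Creld2 are called higher and Pdia4 is no longer called, while Chac1, Atf5, Creb3l3, Trib3, Shmt2, Vldlr and Sel1l stay lower.

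Healthy replicate 3 stood apart in these genes. It was the highest of the 6 libraries for 16 of the 33 genes, against 14.3% of all tested genes, and the highest of the healthy ones for 21, against 33.4%. It exceeded the mean of the other 2 healthy libraries at least 1.5-fold for 10 of the 33 genes, against 5.58% of all tested genes. The 10 were Dnajb9, Creld2, Herpud1, Hyou1, Eif2ak3, Manf, Hspa5, Xbp1, Sel1l and Sdf2l1, with log2 differences from 0.66 in Sdf2l1 to 1.93 in Dnajb9. By role, 6 of 9 chaperones and 2 of 3 ER-associated degradation genes were among them, and 0 of the 4 feedback genes and 0 of the 4 tested amino acid and one-carbon enzymes. Senescent replicate 1 was at least 1.5-fold below the mean of the other 2 senescent libraries for 6 of the 33, against 4.59% of all tested genes. Those were Dnajb9, Asns, Eif2ak3, Herpud1, Hspa5 and Hyou1, with log2 differences of -1.80 to -0.62. For 13 of the 33 genes healthy replicate 3 was the highest of its group and senescent replicate 1 the lowest of its own, against 20.1% of all tested genes. These counts were looked for after the values had been seen and describe single libraries, so no test goes with them.

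Spread within groups was compared with that of genes of similar level. Of the 26 with a mean of at least 10 CPM, 8 had a highest healthy library at least 2 times the lowest, where 5.45% of 7501 genes of that level had. In the senescent group 3 of the 26 did, where 2.43% had. The median ratio of highest to lowest library was 1.42 in the healthy and 1.39 in the senescent group, and 1.27 and 1.18 over all genes of that level. In healthy replicate 3 the 12 Kupffer cell and macrophage markers were lower than in the other healthy libraries (median log2 difference -1.34), and 8 of 12 cytosolic heat shock genes were at least 1.5-fold higher (median 0.75). Whether these have a part in the pattern was not tested. Without healthy replicate 3, edgeR called 4 of the 33 genes higher and 7 lower, where 20.3% and 21.1% of 13242 genes were.

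**Figure D3:**
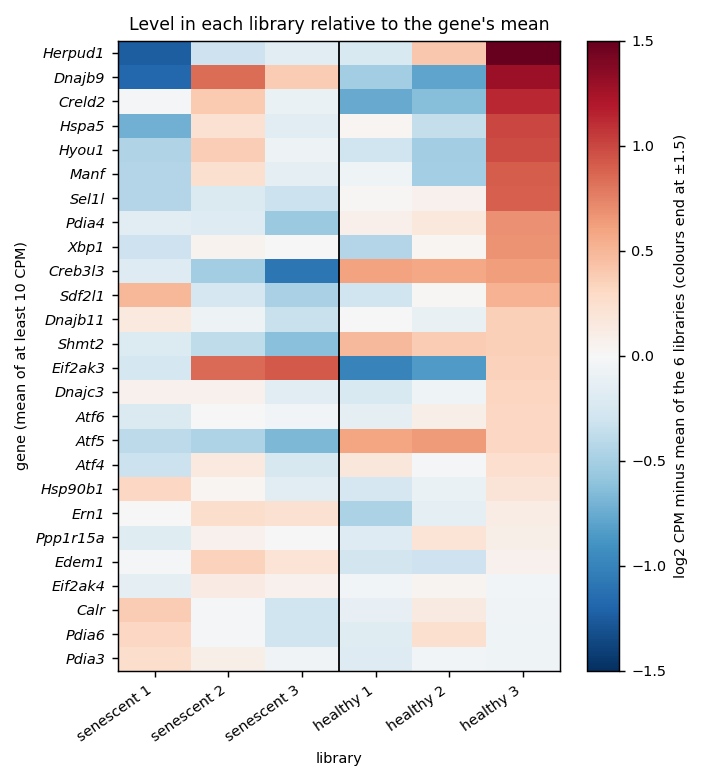
Level of the 26 tested genes with a mean of at least 10 CPM, as log2 CPM minus the gene's mean over the 6 libraries, ordered by healthy replicate 3. Herpud1, Dnajb9, Creld2, Hspa5, Hyou1 and Manf are highest in healthy replicate 3, and Herpud1, Dnajb9 and Hspa5 are lowest in senescent replicate 1, whereas Atf5, Creb3l3 and Shmt2 divide the groups.

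Levels were ranked per length by the mean of the healthy libraries, as transcripts per 1000000 (TPM), and Calr was highest, at 659 to 820 TPM. Atf5 followed at 444 to 543 TPM, then Hspa5 at 294 to 769 TPM and Hsp90b1 at 379 to 546 TPM. The ranges of those last 3 overlapped each other, and that of Hspa5 also overlapped that of Calr. Herpud1 (157 to 568 TPM) and Pdia3 (261 to 302 TPM) were next and overlapped each other. Both also overlapped Hspa5, and Herpud1 overlapped Atf5 and Hsp90b1 as well. The sensors sat much lower, with Ern1 at 11.7 to 18.65 TPM, Atf6 at 10.9 to 15.75 TPM, Eif2ak3 at 3.25 to 8.80 TPM and Eif2ak4 at 2.63 to 2.87 TPM. At the bottom were Asns (0.403 to 0.642 TPM), Mthfd2 (0.339 to 0.519 TPM), Psat1 (0.155 to 0.333 TPM) and Phgdh (0 to 0.253 TPM). The range of Asns overlapped that of Mthfd2, and that of Psat1 overlapped that of Phgdh, while Mthfd2 and Psat1 did not overlap. Shmt2, of the same group of enzymes, had 160.4 to 165.5 TPM.

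The wider pathway was read from 7 further lists holding 168 genes, of which 162 were tested. Of these, 22 rose (13.6%) and 31 fell (19.1%), where 20.4% and 20.7% of all tested genes did, with a median log2 fold change of -0.06. With total library size 52 rose and 11 fell, where 37.5% of all genes rose and 9.92% fell. The counts for each list that follow are to be read against the same shares. Among 16 genes of translation control 3 rose and 3 fell. The initiation factor gene Eif2d went from 25.8 ± 1.67 to 47.4 ± 1.63 CPM (mean ± SD, n = 3) and Eif2s1, the gene of eIF2α itself, from 36.4 ± 2.60 to 49.5 ± 5.05 CPM. Eif2ak1, the kinase HRI, fell from 43.7 ± 0.687 to 33.1 ± 1.73 CPM and the eIF2B subunit gene Eif2b1 from 19.8 ± 1.70 to 14.8 ± 1.36 CPM. The adjusted p of these 4 was 4.0e-04, 0.019, 0.013 and 0.028 by edgeR. Eif2s1 no longer passed once senescent replicate 2 (0.058), senescent replicate 3 (0.063) or healthy replicate 2 (0.070) was left out, nor did Eif2ak1 once senescent replicate 2 (0.057) or 3 (0.094) was. Eif2b1 no longer passed once any library but healthy replicate 2 was left out (0.052 to 0.14). With total library size the falls of Eif2ak1 and Eif2b1 were not called (edgeR adjusted p = 0.47 and 0.49).

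Among 18 tested genes of other sensors, proteases and bZIP factors, 3 rose and 5 fell. Mbtps2 encodes the site-2 protease that cuts ATF6 and CREBH, and it rose from 6.21 ± 0.912 to 16.8 ± 2.71 CPM (edgeR adjusted p = 4.5e-04). Jdp2 went from 0.512 ± 0.0912 to 1.48 ± 0.321 CPM (adjusted p = 0.0061). The third, named after its values were seen, was the stress factor gene Atf3, with 12.4, 5.33 and 5.82 CPM in senescent against 1.65, 3.00 and 3.25 CPM in healthy libraries (edgeR adjusted p = 0.012). Atf3 is also on the list of immediate early genes below. Falls were those of Nfe2l1, a factor anchored in the ER that controls proteasome genes, from 149.7 ± 15.2 to 79.99 ± 8.73 CPM, and of Tmbim6, an ER membrane inhibitor of cell death, from 2047 ± 254 to 1232 ± 47.3 CPM. Their edgeR adjusted p was 0.0010 and 0.0055.

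Of 24 tested genes of the ATF4 programme of amino acid and stress genes 7 rose (29.2%) and 6 fell (25%), against 20.4% and 20.7% of all tested genes, and with total library size 7 rose and 3 fell. Gdf15, a stress cytokine gene, went from 29.5 ± 1.67 to 239.98 ± 18.4 CPM and Sesn2, a leucine sensor gene, from 10.7 ± 2.02 to 124.9 ± 11.5 CPM, and both are known targets of p53 as well. The other rises were those of Slc1a4, Ddit4, Slc3a2, Slc7a1 and Aldh18a1. That of Slc1a4 was the largest of the list, at 12.27-fold (edgeR adjusted p = 4.4e-06). Slc7a1 had counts of only 25, 14 and 21 in senescent and 4, 5 and 1 in healthy libraries. Aldh18a1 had counts of only 39, 23 and 61 in senescent and 11, 18 and 8 in healthy libraries. Its groups overlapped in CPM, and its edgeR adjusted p was 0.049. Shmt1 fell from 241 ± 63.9 to 83.1 ± 16.6 CPM and the stress cofactor gene Nupr1 from 1.63 ± 1.27 to 0.182 ± 0.0939 CPM. The edgeR adjusted p of Gdf15, Sesn2, Shmt1 and Nupr1 was 1.1e-06, 3.2e-06, 0.0010 and 0.0097. Nupr1 had counts of only 5, 4 and 10 in senescent and 13, 76 and 42 in healthy libraries. It therefore met the count filter mainly through the group where it was high. Among 18 tRNA synthetase and export genes 2 rose and 3 fell: Cars rose from 32.9 ± 5.15 to 71.2 ± 11.7 CPM and Gars from 43.3 ± 6.04 to 56.9 ± 1.26 CPM, while Tars fell from 204 ± 13.6 to 101.9 ± 2.64 CPM and Yars from 39.0 ± 2.19 to 26.6 ± 3.24 CPM. The rise of Gars (edgeR adjusted p = 0.036) was lost without any library but healthy replicate 1 (0.051 to 0.079), and the fall of Yars (0.0078) with total library size (0.11).

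ER machinery outside the core list was read from 3 lists. Of 31 other folding genes 3 rose (9.68%) and 7 fell (22.6%). The lectin chaperone gene Canx went from 397 ± 32.7 to 698 ± 19.8 CPM and Uggt1, the folding sensor of glycoproteins, from 77.9 ± 6.05 to 109 ± 7.04 CPM. Pdia5 fell from 67.9 ± 2.24 to 34.045 ± 5.96 CPM, and Txndc5 was at 159.9 ± 11.3 CPM in healthy libraries and fell by 0.68 on the log2 scale. The edgeR adjusted p of these 4 was at most 0.0096. Cdnf, also among the risen, had counts of only 27, 31 and 21 in senescent and 9, 4 and 10 in healthy libraries. With total library size 9 of the 31 rose and 2 fell. Of 24 other ER-associated degradation genes 3 rose and 3 fell, 12.5% each way, and with total library size 7 rose and 2 fell. The falls included the ligase gene Rnf5, from 64.1 ± 4.39 to 40.2 ± 4.41 CPM, and Derl2 of the retrotranslocation channel, from 111.9 ± 16.9 to 67.3 ± 3.10 CPM (edgeR adjusted p = 0.0032 and 0.0033). The rises of Nploc4 and Faf2, cofactors of the segregase p97, were small, from 75.1 ± 9.03 to 98.6 ± 3.98 and from 52.3 ± 4.77 to 67.3 ± 2.02 CPM (edgeR adjusted p = 0.029 each), and were lost without any library but healthy replicate 3 (0.051 to 0.11). Of 32 tested genes of ER entry, glycosylation and export 5 fell (15.6%) and 1 rose (3.12%), and with total library size 6 rose and 1 fell. The gene that rose was Srp72 of the signal recognition particle, from 90.7 ± 12.6 to 248 ± 28.9 CPM. Those that fell included the export GTPase gene Sar1b, from 174.9 ± 10.1 to 97.7 ± 4.59 CPM, and Dad1, a subunit gene of the oligosaccharyltransferase, from 58.9 ± 6.03 to 43.2 ± 4.999 CPM. Dad1 (edgeR adjusted p = 0.026) no longer passed once senescent replicate 2 (0.085), senescent replicate 3 (0.13), healthy replicate 1 (0.059) or healthy replicate 2 (0.072) was left out, or under total library size scaling (0.39).

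Chaperones of other compartments were read for comparison. Of 12 mitochondrial chaperone and protease genes 5 fell (41.7%) and 0 rose, against 20.7% and 20.4% of all tested genes (edgeR; 6 and 0 at an unadjusted p under 0.05, 6 and 0 by DESeq2, 5 and 0 by limma-voom). Trap1 went from 184 ± 7.37 to 111 ± 7.76 CPM and Clpx from 343 ± 38.4 to 189.6 ± 19.7 CPM (edgeR adjusted p = 0.0013 and 0.0018). With total library size 3 of the 12 fell and 1 rose. Of 12 cytosolic heat shock genes 1 fell and 0 rose (1 and 0 at an unadjusted p under 0.05, by DESeq2 and by limma-voom). That gene, Hsph1, had 38.5 ± 5.62 CPM in senescent and 70.8 ± 30.7 CPM in healthy libraries (edgeR adjusted p = 0.032). It no longer passed once any senescent library was left out (0.068 to 0.10) or under total library size scaling (0.11). Healthy replicate 3 had 106 CPM of it, and without that library the log2 fold change moved from -0.88 to -0.47 (adjusted p = 0.035). Without healthy replicate 3, 3 heat shock genes were called higher. Of 11 tested immediate early genes, which respond to tissue dissociation, 6 rose and 0 fell (6 and 0 at an unadjusted p under 0.05, by DESeq2 and by limma-voom). Atf3, already counted with the bZIP factors above, was among the 6. Egr1 went from 77.1 ± 30.0 to 241 ± 8.10 CPM and Btg2, which is also a p53 target, from 35.3 ± 6.87 to 403 ± 19.5 CPM (edgeR adjusted p = 0.0012 and 3.0e-06). Those genes moved with the groups, and their part in the stress response results was not tested.

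**Figure D4:**
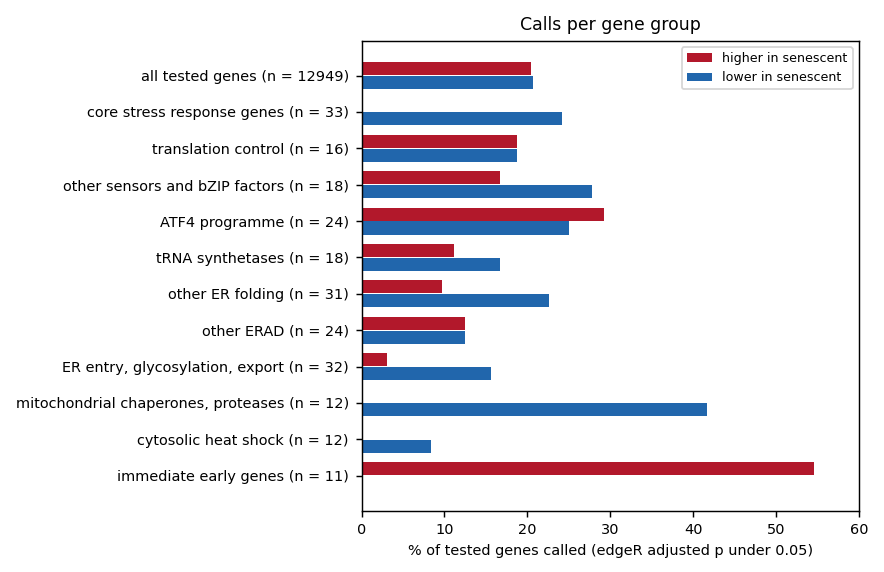
Share of tested genes called higher (red) or lower (blue) in senescent libraries for all tested genes, the 33 core genes and each further list, with the number tested in brackets. The core genes show no rise and 24.2% lower, beside 20.4% higher and 20.7% lower over all genes.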

How the data were processed

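The 34 genes, the further lists and the tests were chosen with earlier results of these data known. The authors deposited 1 table of whole, unnormalized read counts for each gene. Build GRCm38, STAR 2.7.1a, cutadapt 1.16, featureCounts, DESeq2 1.34.0, MultiQC 1.3 and FastQC are listed in the submitters' processing notes, with annotation release, strand setting and any filter of genes not given in the sources used here. The table has 0 rows naming no gene. Of its 6 columns, 5 carry a sample's exact code, and the last, whose label differs in 1 letter, was taken as healthy replicate 2. Symbols were found for 31976 identifiers, and lengths come from GENCODE M21.

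Genes were filtered with filterByExpr (minimum count 10, total 15), scaled by TMM and tested with edgeR 4.0.16 (R 4.3.3) by the two-sided quasi-likelihood F test without covariates; SE is the log2 fold change over the square root of F. Alternatives used DESeq2 1.42.0, limma 3.58.1 (voom), other scalings, filters and thresholds, a replicate block and each library left out. An exact permutation test of 3 against 3 libraries cannot go below p = 0.1, so none was used. Named genes were all 34, with per-library values for called and central ones, and the 2 risen and 2 fallen genes of smallest p in each further list. Atf3, Cdnf and the other risen genes of the ATF4 programme were named after their values were seen. No library was a copy of another (chi-square per degree of freedom at least 46.4). On simulated counts for 12797 genes made to resemble these 6 libraries, calls were right for 74.7% of 99 genes altered 2-fold and for 99% of 99 altered 4-fold, with 5 false calls. There 12599 genes were unchanged, whereas 41.1% of tested genes passed in the data, so these rates need not carry over.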

Additional observations from a re-analysis of the deposited data

How the results depend on the processing

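Fits with total library size, DESeq2, limma-voom, a stricter threshold, a replicate block or 1 library fewer changed counts or directions as follows, and the cause was not tested. The falls of Atf5, Creb3l3 and Shmt2 passed in all 15 alternatives, and no gene whose direction reversed was called with all libraries. Under total library size scaling, rises numbered 4861 and falls 1285 over all genes, 5 and 5 of the 33 stress response genes and 52 and 11 of the 162 others, and the median moved to 0.325 (all genes), 0.176 (the 33) and 0.253 (others). Atf6 (0.123), Atf4 (0.038), Xbp1 (0.062), Ppp1r15a (0.236), Dnajc3 (0.267), Hyou1 (0.07), Dnajb9 (0.214), Dnajb11 (0.133), Sdf2l1 (0.176), Creld2 (0.203) and Psat1 (0.314) then turned positive on the log2 scale. At an adjusted p under 0.01, 1570 genes rose and 1498 fell, 4 of the 33 fell, and 12 others rose and 12 fell. DESeq2 called 1 of the 33 higher, and limma-voom reversed Dnajb9 (0.018), Creld2 (0.168) and Pdia6 (-0.002).

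Replicate numbers gave no pairing (correlations of same-numbered deviations 0.228, -0.174 and -0.043); with the replicate block 1 of the 33 rose, Eif2ak3 (1.0, edgeR adjusted p = 0.013), Herpud1 was called lower (-1.136, 0.0055), Pdia4 (0.056) and Eif2b1 (0.051) were no longer called, and Creld2 (0.186) and Pdia6 (-0.001) reversed.

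Leaving out 1 library at a time gave 1836 to 2691 risen and 1489 to 2789 fallen genes, 0 to 4 and 5 to 9 of the 33, and 15 to 28 and 12 to 28 of the others, with a median over the 33 of -0.296 to 0.017. Log2 fold changes that changed sign ran from -0.476 to 0.101 (Xbp1), -0.185 to 0.021 (Ppp1r15a), -0.158 to 0.128 (Dnajc3), -0.008 to 0.25 (Hsp90b1), -0.495 to 0.389 (Hyou1), -0.124 to 0.238 (Calr), -0.489 to 0.875 (Dnajb9), -0.46 to 0.118 (Sdf2l1), -0.411 to 0.79 (Creld2), -0.59 to 0.183 (Manf), -0.133 to 0.188 (Pdia6) and -0.468 to 0.317 (Psat1). Depth limits Asns, Psat1, Mthfd2 and Phgdh, which had at most 1.77 CPM in any library, where 3 counts are 0.0837 to 0.117 CPM.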
